A study of Homo sapiens with 8 samples.

Results

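Glycolysis splits glucose into pyruvate, and cells short of oxygen turn much of that pyruvate into lactate. When oxygen is low, the alpha subunits of hypoxia-inducible factor (HIF) escape degradation, pair with ARNT and switch on glucose transporters, glycolytic enzymes and genes for vessel growth, acid balance and mitochondrial turnover. Many tumour cell lines use this program even in air. The 35 genes described here were picked by name from the 43317 genes on the array. They comprise 21 genes of glucose uptake, glycolysis and pyruvate or lactate handling, 12 genes known as effectors of the hypoxia response, and the HIF alpha subunits HIF1A and EPAS1.

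Their RNA was measured on 8 2-colour oligonucleotide arrays, each with 1 transfected culture against mock cells of the same line. PC3, a prostate cancer line, received 1 of 4 miRNAs, miR-99a-3p, miR-150-3p, miR-100-3p or miR-150-5p. FaDu, a squamous carcinoma line of the hypopharynx, received the miR-99a strands miR-99a-3p or miR-99a-5p, and PANC-1, a pancreatic cancer line, received si-FOXQ1-1 or si-FOXQ1-2, siRNAs against the transcription factor FOXQ1. RNAs were delivered with Lipofectamine RNAiMAX, and the labels call the mock cells not transfected, so the arrays hold no control RNA. Mock RNA was labelled with Cy3 and transfected RNA with Cy5 on every array, so that a dye effect cannot be told apart from the transfection. The time between transfection and RNA extraction is not given for the arrays in the sources used here, and neither are oxygen or glucose levels.

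Each line is an established tumour line and was checked against marker genes. CTNNA1, which PC3 cells have lost, was not above background in any of the 4 mock PC3 channels and was detected in FaDu and PANC-1. Of 7 squamous markers, all were detected in FaDu, 2 to 3 on each PC3 array and 1 in PANC-1. KRT5, KRT14, DSG3 and TP63 were detected in FaDu only, SFN in all 3 lines, SERPINB5 also in PC3, and KRT6A also, dimly, on 2 PC3 arrays. Of 6 prostate markers, 4 to 5 were detected on each PC3 array, 4 in FaDu and 3 in PANC-1. HOXB13 had mock signals of at least 38192 in PC3 and at most 402 in the other lines. KLK3 was detected in no line. Of 7 pancreatic duct markers, the same 5 were detected in all 3 lines, and PDX1 and CFTR in none. Detection of these markers did not set PANC-1 apart. FOXQ1 had a log2 ratio of -2.16 with si-FOXQ1-1 and -2.12 with si-FOXQ1-2, with spot errors of 0.29 and 0.28.

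The passenger and guide strands of miR-99a and the passenger strand of miR-100 are shown because the array with the widest spread of the set, FaDu with miR-99a-3p, and the arrays set beside it used miRNAs of this family. Sequences are from RefSeq (GRCh38.p14), 5′ to 3′, and capitals mark the seed, bases 2 to 8, by which a miRNA recognises its targets.
miR-99a-5p: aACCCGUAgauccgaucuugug
miR-99a-3p: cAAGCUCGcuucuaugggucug
miR-100-3p: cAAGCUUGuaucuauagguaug
miR-99a-5p lies at chr21:16539101-16539122 and miR-99a-3p at chr21:16539138-16539159, both on the plus strand, and miR-100-3p on chr11:122152240-122152261 of the minus strand. The seeds of miR-99a-3p and miR-100-3p differ at 1 of 7 bases, and miR-99a-5p has another seed.

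A log2 ratio below is the deposited ratio of transfected over mock RNA for the brightest probe of a gene, and its error is the spot error of the scanner software. Each condition has 1 array, so no ratio has a biological replicate or a test, and "2-fold" is a size and not a significance call. The median spot error of the 35 genes was 0.205 to 0.211 per array on the log2 scale. Repeated spots of 1 probe varied less, with a median SD of 0.050 to 0.0656. In bulk RNA, fewer cells of a kind and less RNA per cell cannot be told apart. Of the 35 genes, 32 were well above background in both channels of all 8 arrays. SLC2A3, a neuronal-type glucose transporter, was not above background anywhere, EGLN3 only in FaDu, and CA9 only in PC3 and FaDu.

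Ratios far from mock were found mainly among the hypoxia effectors. Across the arrays, 17 of 264 measured log2 ratios were 2-fold or more from mock, and 3 of these belonged to the 21 glycolysis genes, among 160 ratios measured for them. These 3 were HK2 and PDK1 in FaDu with miR-99a-3p and ENO2 in PANC-1 with si-FOXQ1-2. Of all genes detected on an array, 3.29% to 9.37% were at least 2-fold lower and 0.412% to 8.25% at least 2-fold higher. Those shares include genes above background in 1 channel only, whereas the ratios of the set were above background in both. Genes outside the set thus also passed 2-fold on every array. How the set compared with all genes differed between arrays and is given for each array below. In all, 24 genes were within 2-fold of mock on every array on which they were measured, 10 genes passed 2-fold on at least 1 array, and SLC2A3 gave no value.

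**Figure D1:**
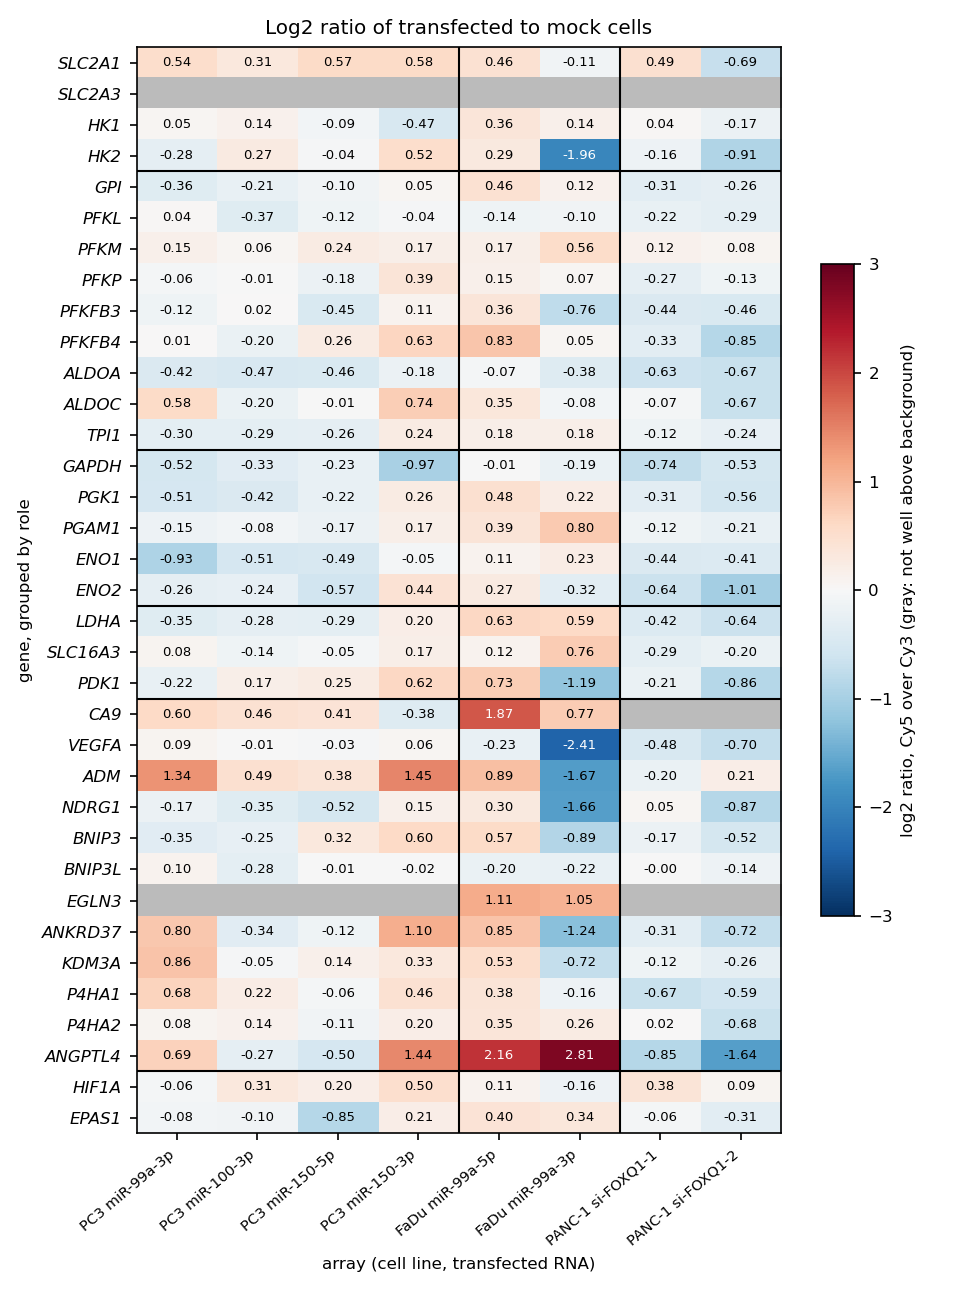
Log2 ratio of transfected over mock RNA (colour and printed value) for the 35 genes, grouped by role (rows), on the 8 arrays (columns), with gray for values not well above background. The FaDu miR-99a-3p column holds both the lowest value, VEGFA at -2.41, and the highest, ANGPTL4 at 2.81.

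In FaDu cells, miR-99a-3p was followed by the widest spread of the set. Of 34 genes measured, 6 were at least 2-fold lower than in mock cells and 2 at least 2-fold higher. Over all 19184 genes detected on that array, 9.37% were at least 2-fold lower and 8.25% at least 2-fold higher, against 17.6% and 5.88% of the set. Among the 16482 genes above background in both channels, as all 34 were, the shares were 5.48% and 7.68%. The median log2 ratio was -0.09 for the set and -0.03 for all detected genes. The median of the set was thus near that of all genes, while its members lay far from one another.

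VEGFA, the main growth factor for blood vessels, had the lowest ratio. Its signal was 18558 in mock and 3493 in transfected FaDu cells, a log2 ratio of -2.41 ± 0.30 (spot error, 1 array), and 0.964% of detected genes lay lower. A second VEGFA probe read -1.52. On the other 7 arrays VEGFA ranged from -0.70 to 0.09, so only this array was far from mock. Its probe covers chr6:43746223-43746634 (hg19).

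HK2, the inducible hexokinase that commits glucose to the pathway, followed. Its signal was 11328 in mock FaDu cells and 2920 after miR-99a-3p, a log2 ratio of -1.96 ± 0.27. On the other arrays HK2 was at -0.28 in PC3 with miR-99a-3p, 0.27 with miR-100-3p, -0.04 with miR-150-5p and 0.52 with miR-150-3p, 0.29 in FaDu with miR-99a-5p, and -0.16 and -0.91 in PANC-1 with si-FOXQ1-1 and si-FOXQ1-2. HK1, the constitutive hexokinase, was at 0.14 in FaDu with miR-99a-3p. The probe of HK2 lies at chr2:75120331-75120390 (hg19).

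ADM, which encodes the vasodilator peptide adrenomedullin, had a log2 ratio of -1.67 ± 0.25 in FaDu with miR-99a-3p. NDRG1, a stress gene of the hypoxia response, was at -1.66 ± 0.25, and ANKRD37, a small ankyrin repeat protein induced by HIF, at -1.24 ± 0.23. PDK1, a kinase that inhibits pyruvate dehydrogenase, was at -1.19 ± 0.23. The mitophagy receptor BNIP3 (-0.89), PFKFB3 (-0.76), which makes the activator of phosphofructokinase, and the histone demethylase KDM3A (-0.72) were lower by less than 2-fold. For PFKFB3 a second probe read -2.33, but its Cy5 signal was not above background.

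ANGPTL4, a secreted inhibitor of lipoprotein lipase, went the other way. Its signal was 3484 in mock and 24365 in transfected FaDu cells, a log2 ratio of 2.81 ± 0.33, and 99.5% of detected genes lay lower. EGLN3, an oxygen-sensing prolyl hydroxylase that marks HIF alpha for decay, was at 1.05 ± 0.24, with dim signals of 189 and 393. PGAM1 (0.80), CA9 (0.77), the lactate exporter SLC16A3 (0.76) and LDHA (0.59), which reduces pyruvate to lactate, were higher by less than 2-fold. HIF1A (-0.16) and EPAS1 (0.34) were close to mock by their brightest probe, though a second HIF1A probe read -0.83.

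Marker genes moved on the same array. Of the 7 squamous markers, all detected, 4 were at least 2-fold lower, among them KRT6A at -2.83 and KRT14 at -1.66, and their summed signal had a log2 ratio of -1.0. Of 8 markers of other cell types, 5 were detected, and 3 were at least 2-fold higher, namely ACTA2 (2.59), CD14 (2.54) and COL1A1 (1.53), with a log2 ratio of 2.27 for the summed signal. Another 1 of the 5 was at least 2-fold lower, though above background in 1 channel only. The summed mock signal of these markers was dim, at 607. With miR-99a-5p the summed signals were at 0.0040 for the squamous markers and 0.49 for the others. PECAM1, COL1A2 and COL3A1 were not above background in either channel. Their part in the results for the set was not tested.

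FaDu cells with miR-99a-5p, the guide strand of the same precursor, showed another picture. None of 34 genes was 2-fold lower, where 4.86% of all 19282 detected genes were, and 3 were at least 2-fold higher, where 0.851% of all genes were. The set lay above mock, with 29 of 34 log2 ratios over 0 and a median of 0.36, against 45.6% of all detected genes over 0 and a median of -0.03. ANGPTL4 was at 2.16 ± 0.29, with signals of 2049 in mock and 9174 in transfected cells. CA9, the membrane carbonic anhydrase that exports acid, was at 1.87 ± 0.33 and EGLN3 at 1.11 ± 0.25. Both were dim in mock cells, CA9 at a signal of 33.2 and EGLN3 at 95.4, and with another background correction they were at 0.79 and 0.69. ADM (0.89), ANKRD37 (0.85), PFKFB4 (0.83), PDK1 (0.73) and LDHA (0.63) were higher by less than 2-fold. VEGFA was at -0.23.

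ANGPTL4 and EGLN3 were at least 2-fold higher on both FaDu arrays, but EGLN3, which was dim, was under 2-fold on both with another background correction (0.69 with miR-99a-5p and 0.79 with miR-99a-3p). In contrast, ADM, ANKRD37, PDK1, HK2, NDRG1, BNIP3 and KDM3A were above 0 with miR-99a-5p and below 0 with miR-99a-3p. For the latter 7 genes the values on the 2 arrays differed by more than the sum of their spot errors. The 2 FaDu arrays have separate mock channels, and whether those hold separate cultures is not stated.

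**Figure D2:**
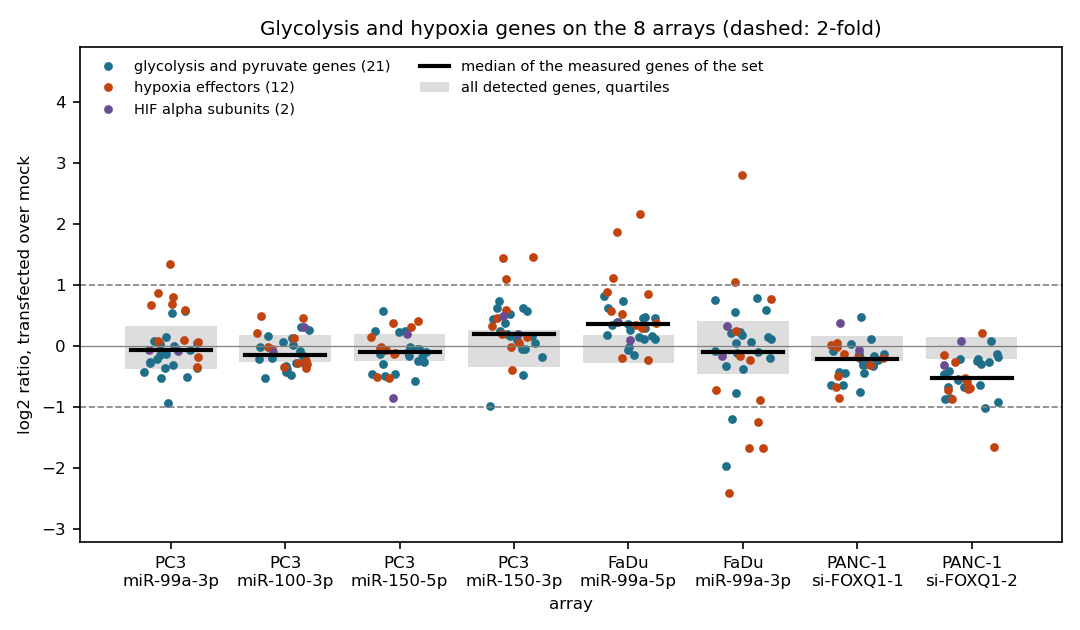
Log2 ratio of transfected over mock RNA (vertical axis) for each measured gene of the set (points, coloured by kind) on the 8 arrays, with the set's median (black line) and the quartiles of all detected genes (gray box). The medians of the set lie at 0.36 with miR-99a-5p in FaDu and at -0.53 with si-FOXQ1-2 in PANC-1, both outside the gray boxes.

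In PC3 cells with the same miR-99a-3p, VEGFA was at 0.09. No gene of the set was 2-fold lower among 33 measured, where 7.39% of the 20545 detected genes were, and ADM alone was at least 2-fold higher, where 4.23% were. ADM had signals of 1524 in mock and 3857 in transfected cells, a log2 ratio of 1.34 ± 0.24. KDM3A (0.86), ANKRD37 (0.80), ANGPTL4 (0.69), and P4HA1 (0.68), a collagen prolyl hydroxylase, were higher by less than 2-fold. CA9 was at 0.60, but at -0.13 against the mean of the 4 mock PC3 channels. Of the glycolysis genes, 13 of 20 lay below 0, as did 48.8% of all detected genes, with ENO1 (-0.93), GAPDH (-0.52) and PGK1 (-0.51) lowest. The median was 0.60 for 11 measured effectors, or 0.36 against the mean of the mock PC3 channels, and -0.18 for 20 measured glycolysis genes, while the median of the set as a whole, -0.06, was near that of all detected genes at 0.02. On this array 5 of the 8 markers of other cell types were detected, COL1A1 was at 2.84, and their summed signal had a log2 ratio of 2.41. Its part in the results was not tested.

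Set side by side for miR-99a-3p, ADM was at 1.34 in PC3 and -1.67 in FaDu, ANKRD37 at 0.80 and -1.24, and KDM3A at 0.86 and -0.72. ANGPTL4 was higher than mock in both lines, at 0.69 and 2.81. These differences are each larger than the spot errors, but with 1 array per line the difference between lines was not tested.

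**Figure D3:**
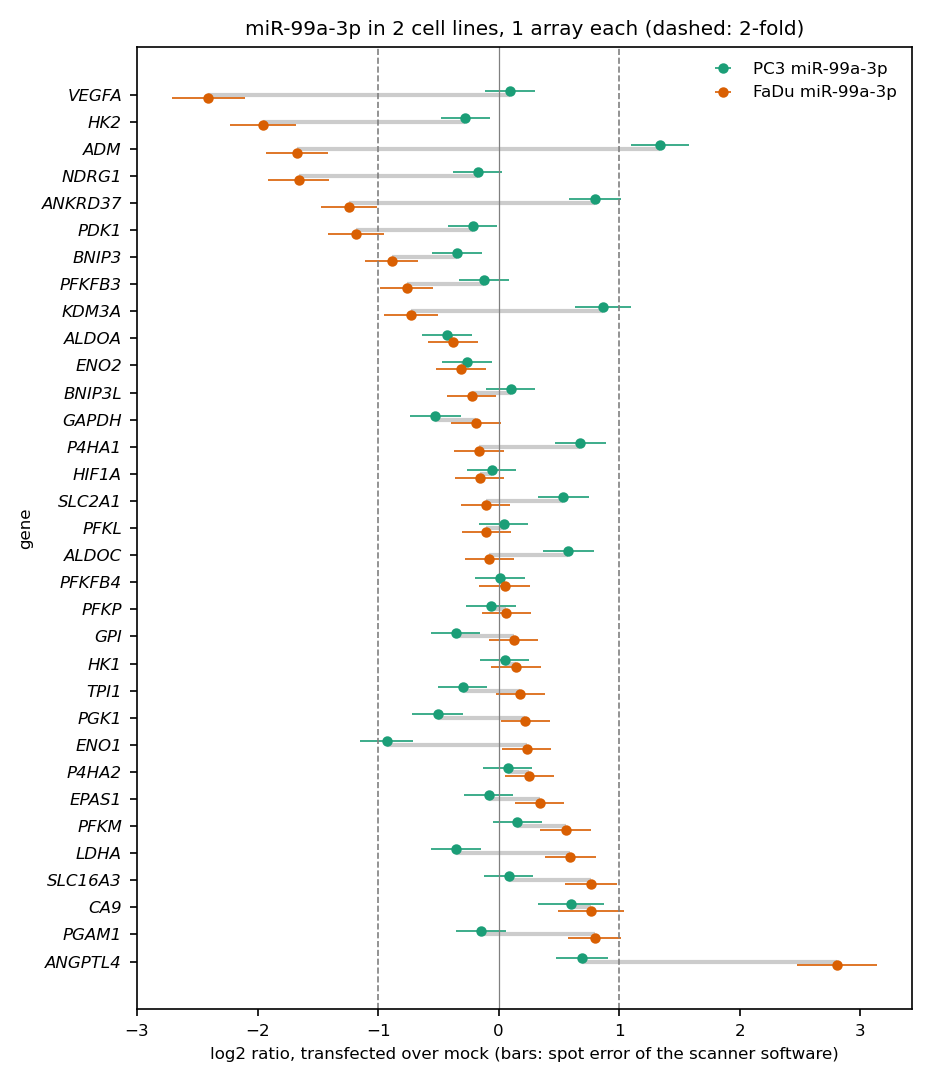
Log2 ratio of transfected over mock RNA (horizontal axis) for 33 genes measured with miR-99a-3p in PC3 (green) and in FaDu (orange), with the spot error as bars. ADM, ANKRD37 and KDM3A lie on opposite sides of 0 in the 2 lines, and VEGFA is at 0.09 in PC3 and -2.41 in FaDu.

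The remaining PC3 arrays differed among themselves. With miR-100-3p none of 33 genes passed 2-fold in either direction (of all genes, 3.34% were lower and 0.987% higher), and the range ran from ENO1 at -0.51 to ADM at 0.49. With miR-150-5p none passed 2-fold either (of all genes, 4.49% were lower and 0.664% higher), and EPAS1, the HIF-2 alpha subunit, was lowest at -0.85 ± 0.22. Of the glycolysis genes, 14 of 20 with miR-100-3p and 16 of 20 with miR-150-5p lay below 0, against 52.6% and 50.9% of all detected genes. Against the mean of the mock PC3 channels these counts were 13 and 12.

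With miR-150-3p none of 33 genes was 2-fold lower, where 6.68% of all genes were, and 3 were at least 2-fold higher, where 2.69% were. They were ADM at 1.45 ± 0.24, ANGPTL4 at 1.44 ± 0.24 and ANKRD37 at 1.1 ± 0.23. The last of these was at 0.85 when the mean of the 4 mock PC3 channels served as control. Of the 33 genes, 26 were above 0, and the median was 0.21, against -0.02 for all detected genes. ALDOC (0.74), PFKFB4 (0.63), PDK1 (0.62), BNIP3 (0.60) and SLC2A1 (0.58) were higher by less than 2-fold.

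GAPDH, a glycolytic enzyme often used as an internal control in RT-PCR, had ratios below 0 on all 8 arrays, but after another background correction it was at 0.020 in PC3 with miR-150-5p and 0.072 in FaDu with miR-99a-5p, where centring also turned it, to 0.022. Its log2 ratio in PC3 was -0.52 with miR-99a-3p, -0.33 with miR-100-3p, -0.23 with miR-150-5p and -0.97 with miR-150-3p. It was -0.01 in FaDu with miR-99a-5p, -0.19 there with miR-99a-3p, and -0.74 and -0.53 in PANC-1 with si-FOXQ1-1 and si-FOXQ1-2. In the PC3 miR-150-3p array it was the lowest of the set. ALDOA, which cleaves fructose bisphosphate, was between -0.67 and -0.07, but it also turned on 2 arrays with that correction, and against the mean of the line's mock channels it was at 0.063 in PC3 with miR-150-3p and 0.010 in FaDu with miR-99a-5p. Several enzymes stayed within a narrow range over the 8 arrays. PFKL, the liver-type phosphofructokinase, was between -0.37 and 0.04, the muscle-type PFKM between 0.06 and 0.56 and the platelet-type PFKP between -0.27 and 0.39. GPI, which isomerises glucose 6-phosphate, was between -0.36 and 0.46, TPI1, which interconverts the triose phosphates, between -0.30 and 0.24, and PGK1, which makes ATP, between -0.56 and 0.48. Of the hypoxia effectors, the mitophagy receptor BNIP3L was between -0.28 and 0.10 and the collagen prolyl hydroxylase P4HA2 between -0.68 and 0.35. SLC2A1, the main glucose transporter of tumour cells, was between 0.31 and 0.58 on 6 arrays, at -0.11 in FaDu with miR-99a-3p and at -0.69 in PANC-1 with si-FOXQ1-2.

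In PANC-1 cells most genes of the set lay below mock on the arrays of both siRNAs against FOXQ1. With si-FOXQ1-1, none of 32 genes was 2-fold lower or higher, where 3.31% and 0.905% of all 19438 detected genes were. Of the 32, 26 lay below 0, with a median of -0.21, against 53.5% of all detected genes and a median of -0.02. Against the mean of both mock channels, 23 did. With si-FOXQ1-2, 2 of 32 genes were at least 2-fold lower, where 3.29% of all genes were, and none was 2-fold higher, where 0.412% were. Of these 32 genes, 29 lay below 0, with a median of -0.53, while 52.1% of all detected genes did, with a median of -0.01. Among genes above background in both channels, as all 32 were, 0.374% were at least 2-fold lower. At a threshold of 1.5-fold, 5 genes were lower with si-FOXQ1-1 and 14 with si-FOXQ1-2, where 8.41% and 7.75% of all detected genes were.

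ANGPTL4 was lowest with both siRNAs, at -0.85 ± 0.22 and -1.64 ± 0.25, and its signal with si-FOXQ1-2 was 22549 in mock and 7215 in transfected cells. ENO2, the neuronal enolase, was at -0.64 and -1.01. NDRG1 was at 0.05 and -0.87, PDK1 at -0.21 and -0.86, PFKFB4, which sets the level of the phosphofructokinase activator, at -0.33 and -0.85, and SLC2A1 at 0.49 and -0.69. HIF1A was at 0.38 and 0.09, and the former was at -0.0035 as a mean over its probes. For 25 of the 32 genes the ratio was lower with si-FOXQ1-2, and 25 were below 0 with both. These counts over both arrays describe the set alone and are not compared with all genes. On the single arrays, 53.5% of all detected genes lay below 0 with si-FOXQ1-1 and 52.1% with si-FOXQ1-2.

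HK2 was at -0.16 and -0.91 with the 2 siRNAs, but its mock level also differed between the 2 arrays. Scaled to each array's 75th percentile, the mock level of HK2 was 3.79 on the si-FOXQ1-1 array and 2.88 on the si-FOXQ1-2 array on the log2 scale. Against the mean of both mock channels, HK2 was at 0.27 and -1.24.

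**Figure D4:**
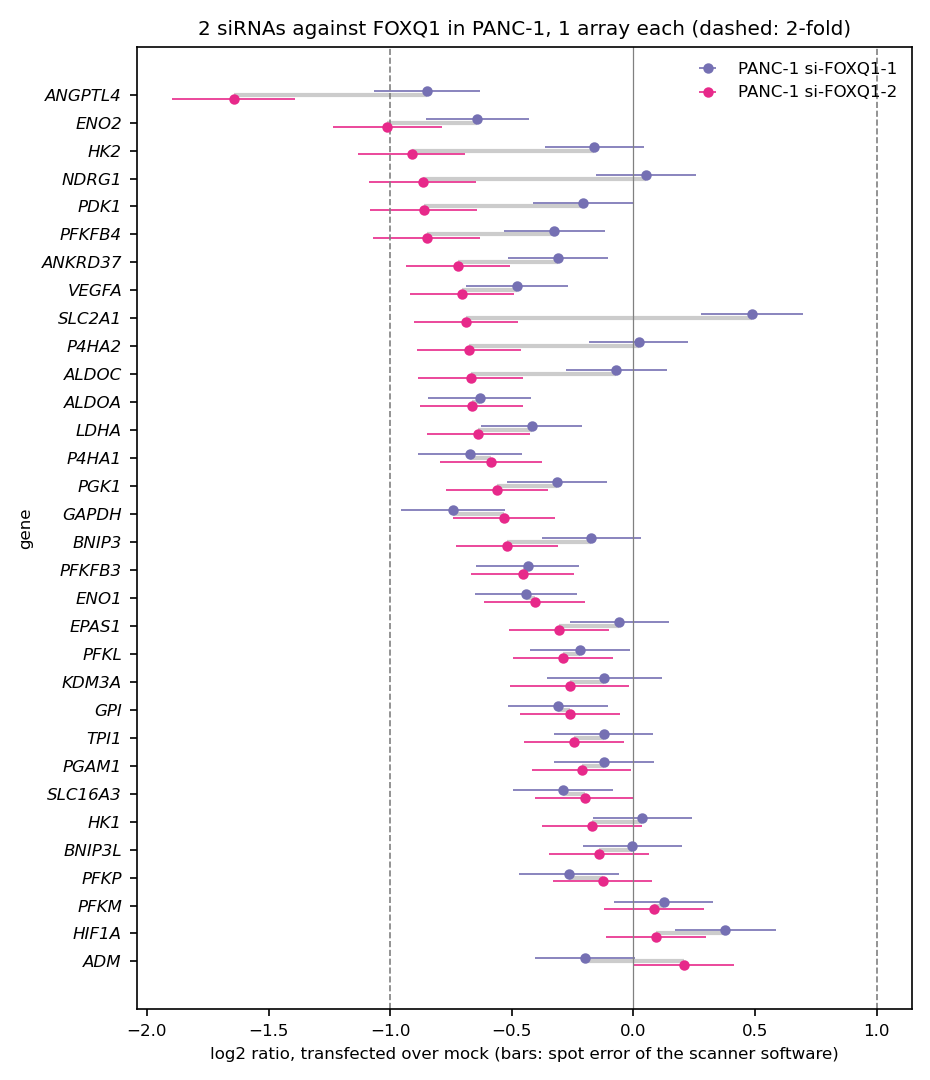
Log2 ratio of transfected over mock RNA (horizontal axis) for 32 genes measured in PANC-1 cells with si-FOXQ1-1 (violet) and si-FOXQ1-2 (pink), with the spot error as bars. With si-FOXQ1-2, 29 of the points lie below 0, and ANGPTL4 is farthest left at -1.64.

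Further genes of the pathway, listed by role, were looked at in the same way. Of 42 other hypoxia-induced genes, 37 were detected in FaDu with miR-99a-3p, and 12 were at least 2-fold lower and 2 higher. Of all genes detected on that array, 9.37% were lower and 8.25% higher. HMOX1, which breaks down haem, was at -3.04, the early response factor FOS at -2.06 and DDIT4, an inhibitor of mTOR complex activity, at -1.91. The list median was -0.28 there and -0.38 with si-FOXQ1-2, where 7 of 36 detected genes were at least 2-fold lower, 2 of them, MIR210HG (-1.42) and AK4 (-1.13), above background in both channels. Of all genes detected with si-FOXQ1-2, 3.29% were at least 2-fold lower. With si-FOXQ1-1 none of 36 was 2-fold lower, and FOS (1.83) and CXCR4 (1.48) were higher (of all genes, 3.31% were lower and 0.905% higher). In FaDu with miR-99a-5p the list median was 0.24, and CXCR4 (1.39) alone of 36 passed 2-fold. Of all genes on that array, 4.86% were lower and 0.851% higher. In PC3 with miR-150-3p, 2 of 38 were lower and 3 higher, led by the chemokine receptor CXCR4 (3.70) and the collagen cross-linking enzyme LOX (2.97). Of all genes with miR-150-3p, 6.68% were lower and 2.69% higher. On the other PC3 arrays the counts at least 2-fold lower and higher were 0 and 3 with miR-99a-3p, 0 and 3 with miR-100-3p, and 2 and 0 with miR-150-5p. In the same order, the shares of all genes were 7.39% and 4.23%, 3.34% and 0.987%, and 4.49% and 0.664%.

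The 18 genes that control HIF itself were all detected on every array. In FaDu with miR-99a-3p, 3 were at least 2-fold higher, the HIF partner ARNT2 (1.60), the chaperone HSP90AA1 (1.60) and the coactivator CREBBP (1.5). None was 2-fold lower. Of all genes detected on that array, 8.25% were higher and 9.37% lower. With miR-100-3p in PC3, RBX1 (-1.11), a subunit of the ligase that ubiquitinates HIF alpha, was lower, and on the other 6 arrays none passed 2-fold. Of all genes, 3.34% were lower with miR-100-3p. On those 6 arrays, 3.29% to 7.39% were lower and 0.412% to 4.23% higher. Of 37 other glycolytic and pyruvate genes, between 25 and 29 were detected per array, and in FaDu with miR-99a-3p 4 were higher and 1 lower, the hexokinase-like HKDC1 (-1.17). C12orf5 (1.56), also known as TIGAR, which opposes phosphofructokinase, was among the higher ones. The shares of all genes for FaDu with miR-99a-3p, 8.25% higher and 9.37% lower, apply here too. PDK4 was higher in PC3 with miR-100-3p (1.44) and with miR-150-3p (1.55).

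HIF binds a short core, ACGTG or GCGTG, which was looked for on both strands in the 300 bases from 250 before to 50 after the start of each gene (RefSeq, GRCh38.p14). A promoter sequence was found for 31 of the 35 genes. ACGTG was present in 41.9% of these and in 23.5% of 15899 promoters of genes on the array, and GCGTG in 45.2% and 42.7%. Either core was present in 71.0% and 54.9%. ACGTG read on both strands overlaps itself in CACGTG. One window per gene is shown for 4 genes that passed 2-fold in opposite directions in FaDu with miR-99a-3p. Capitals mark the core as read on the strand of the gene, where CACGT is the reverse complement of ACGTG.
HK2: tgggcgtgcgCACGTcactgatccg
ANKRD37: gtgtttgtgtACGTGcggccgtggc
ADM: gcaggagcgcGCGTGgctgaggaaa
ANGPTL4: aaagaagagtCACGTctcccacggt
The windows lie at chr2:74834069-74834093, chr4:185396688-185396712, chr11:10304962-10304986 and chr19:8363911-8363935, with the first capital at -48, -143, -101 and -234 from the start site. PDK1, also at least 2-fold lower, and EGLN3, at least 2-fold higher, held neither core in their windows. For VEGFA and NDRG1, also at least 2-fold lower, no promoter sequence was found. These matches are letters in a window and were not measured as binding.

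The mock channels give the level of each gene in the 3 lines before transfection, with 4 channels for PC3 and 2 each for FaDu and PANC-1. Levels are the log2 Cy3 signal minus the array's 75th percentile, compared between lines for the same probe with limma, and p-values were adjusted by Benjamini-Hochberg over 21496 genes. The labels do not say whether the mock RNAs came from separate cultures, so these p-values measure the spread between channels, which may be technical. Most genes differed between lines by this test, so that size says more than a call. Over the 34 genes tested, 15 were higher in FaDu than in PC3 and 14 lower, against 41.6% and 36.2% of all genes. In PANC-1 against PC3, 12 were higher and 16 lower, against 37.2% and 32.2%. In FaDu against PANC-1, 15 were higher and 16 lower, against 36.6% and 35.9%. The median absolute difference was 0.76, 0.81 and 1.05 for the set and 0.80, 0.62 and 0.75 for all genes, in the same order.

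**Figure D5:**
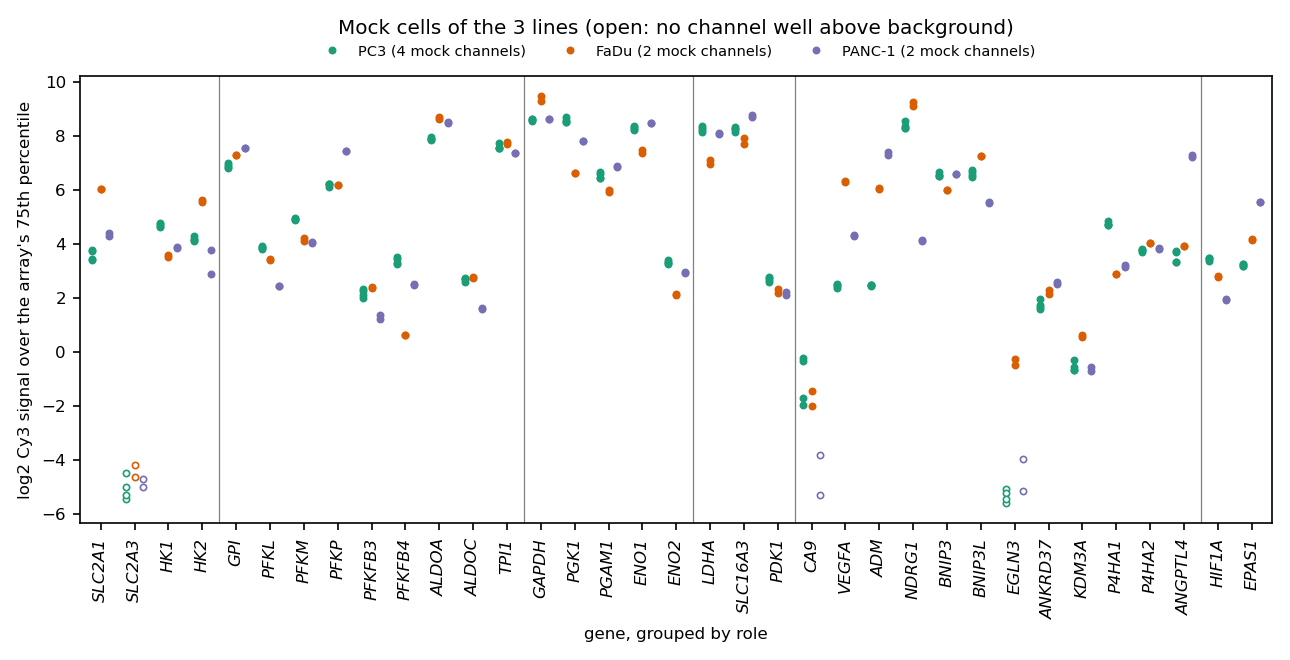
Level in mock cells (vertical axis, log2 Cy3 signal over the array's 75th percentile) of the 35 genes (horizontal axis) in PC3, FaDu and PANC-1, with 1 point per mock channel and open points where no channel of the line was well above background. Differences between genes also reflect their probes, so only the points of 1 gene compare, as for NDRG1, which lies near 4.1 in PANC-1 and above 8.2 in the other lines.

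ADM, NDRG1 and ANGPTL4 each differed more than 2-fold between lines. ADM was at 2.47, 2.49, 2.46 and 2.44 in the mock PC3 channels, at 6.04 and 6.07 in FaDu and at 7.40 and 7.30 in PANC-1, so the lines did not overlap. It was higher than in PC3 by 3.59 ± 0.05 (SE) in FaDu (adjusted p = 1.4e-08, limma) and by 4.88 ± 0.05 in PANC-1 (adjusted p = 5.2e-09, limma). NDRG1 was between 8.29 and 8.57 in PC3, at 9.11 and 9.26 in FaDu and at 4.14 and 4.10 in PANC-1, and had a log2 difference of -4.26 between PANC-1 and PC3, or 19.1-fold lower (adjusted p = 8.5e-08, limma). ANGPTL4 was at 7.23 and 7.29 in PANC-1, where both siRNAs gave ratios below 0, and between 3.32 and 3.92 in the other lines, a difference of 3.75 ± 0.14 from PC3 (adjusted p = 7.0e-07, limma).

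VEGFA, ADM, HK2 and SLC2A1 were all higher in mock FaDu than in mock PC3. VEGFA was at 6.3 and 6.33 in FaDu and between 2.37 and 2.5 in PC3, a difference of 3.87 ± 0.06 (adjusted p = 1.4e-08, limma). SLC2A1 was higher by 2.45 ± 0.13, HK2 by 1.39 ± 0.22 and KDM3A by 1.15 ± 0.12. The log2 difference, FaDu minus PC3, was -2.74 ± 0.09 for PFKFB4, -1.95 ± 0.07 for PGK1, -1.86 ± 0.06 for P4HA1, -1.22 ± 0.08 for LDHA, -1.20 ± 0.06 for ENO2 and -1.15 ± 0.06 for HK1. FaDu thus had more RNA for the uptake transporter and HK2, and less for HK1, PGK1, ENO1, ENO2 and LDHA, than PC3. The enzymes were mixed, since GAPDH, ALDOA and GPI were higher in FaDu. GAPDH was at 9.46 and 9.30 in FaDu and between 8.56 and 8.63 in PC3. ALDOA was at 8.71 and 8.61 against 7.86 to 7.97, and GPI at 7.29 and 7.31 against 6.83 to 6.99. ALDOC, CA9, PFKFB3, PFKP and TPI1 did not pass the test in this comparison.

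EGLN3 was not above background in mock PC3 or PANC-1 cells and was at least 8.99-fold higher in FaDu than in PC3 and at least 7.28-fold higher than in PANC-1, as bounds from the dimmest signal above background (adjusted p = 6.9e-06 and 4.6e-05 in the fit, limma). CA9 was not above background in PANC-1 and was at least 4.58-fold higher in PC3 (adjusted p = 0.0023, limma) and at least 2.87-fold higher in FaDu (adjusted p = 0.012, limma). The call between FaDu and PANC-1 was lost when FaDu mock replicate 2 (adjusted p = 0.0605, limma) or PANC-1 mock replicate 2 (adjusted p = 0.0708, limma) was left out.

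The HIF alpha subunits ran in opposite order across the lines. HIF1A was at 3.44 ± 0.04 (SD, n = 4) in PC3, 2.79 ± 0.04 (SD, n = 2) in FaDu and 1.95 ± 0.03 (SD, n = 2) in PANC-1. EPAS1 was at 3.22 ± 0.04 (SD, n = 4) in PC3, 4.17 ± 0.04 (SD, n = 2) in FaDu and at 5.56 in both PANC-1 channels. All 6 differences passed the test, from 0.65 ± 0.06 for HIF1A between PC3 and FaDu to 2.34 ± 0.06 for EPAS1 between PANC-1 and PC3. These are RNA levels, and HIF alpha is regulated largely as protein.

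The mock PC3 channels were not alike. Across 21496 genes, those of the miR-99a-3p and miR-100-3p arrays correlated at 0.995 and those of the miR-150-5p and miR-150-3p arrays at 0.996, against 0.991 to 0.992 across these pairs. CA9 was at -1.71 and -1.97 in the first pair and at -0.22 and -0.34 in the second, and ANGPTL4 at 3.69 and 3.73 against 3.32 and 3.32. SLC2A1 was at 3.40 and 3.44 against 3.75 and 3.77. With each such pair averaged to 1 value, which leaves FaDu and PANC-1 with 1 value each, 66 of the 88 differences called for the set remained called.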

How the data were processed

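RNA was extracted with Trizol, labelled with Cy3 (mock) or Cy5 (transfected) and hybridised to 8 Agilent arrays on 1 slide, with probes annotated on hg19. The deposited intensity values are Feature Extraction 10.7.3.1 signals, background-corrected and dye-normalized within each array by the authors' scanner software. The deposited log10 ratio, Cy5 over Cy3, was computed by the same software and multiplied by 3.32193 to give log2 ratios. The deposited series table held the same log10 ratios.

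Control and outlier spots were left out, spots of 1 probe were averaged, and the brightest probe stood for its gene. A gene counted as detected where either channel was well above background. A ratio has 1 array and no test. For mock cells, log2 Cy3 signals minus the array's 75th percentile were fitted with limma 3.58.1 (R 4.3.3) with line as the only term, after a check on simulated data. The number of arrays limits the precision. Members and lists were chosen with earlier results of these data known. All 35 genes were named. From the other lists, up to 3 genes per list and array were named if above background in both channels and at least 2-fold from mock, and marker genes were named where they moved beside a result. Alternatives covered background correction, centring, dim probes, outlier spots, probe choice, thresholds and left-out mock channels.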

Additional observations from a re-analysis of the deposited data

Results flagged for a closer look

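With miR-99a-3p, 3 of 33 genes measured in both lines were past 1.5-fold in opposite directions in PC3 and FaDu. This count describes the set alone and is not compared with all genes. The log2 ratio in FaDu minus that in PC3 was -3.01 for ADM, -2.04 for ANKRD37 and -1.59 for KDM3A. Each line has 1 array, so the difference was not tested.

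Among the 4 mock PC3 channels, 3 of 33 genes had 1 channel far from the rest, with a gap over the range above Dixon's critical value for 4 samples. Chance gives about 1 in 20. For PFKP the share was 0.865, with 1 channel at 6.10 and the rest at 6.21 to 6.23. For TPI1 it was 0.939, with 1 channel at 7.72 and the rest at 7.54 to 7.55. For P4HA1 it was 0.861, with 1 channel at 4.84 and the rest at 4.70 to 4.72.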

How the results depend on the processing

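No ratio past 2-fold and no mock difference that passed the test changed sign. Of 264 ratios, 22 changed sign with the mean of the line's mock channels as control, 16 with normexp and loess, 10 with the mean over probes and 6 with centring, and of these 4, 2, 2 and 0 had been farther from 0 than their spot error. CA9 accounted for 3 of the first 4, turning to -0.13 with miR-99a-3p, -0.27 with miR-100-3p and 0.15 with miR-150-3p in PC3. Mock differences that did not pass the test changed sign 11 times over the alternatives. With normexp and loess, and likewise with the mean of the line's mock channels as control (chosen after seeing the data), the genes at least 2-fold higher numbered 1 in FaDu with miR-99a-5p and 1 with miR-99a-3p. Requiring 1 spot error beyond 2-fold left 1 gene higher in FaDu with miR-99a-3p and 1 lower with si-FOXQ1-2, and centring on the median also left 1 lower with si-FOXQ1-2. Without the filter on dim probes, 1 gene was higher with miR-150-5p. At 1.5-fold, 1 gene was lower and 6 higher in PC3 with miR-99a-3p, 1 lower with miR-150-5p, 1 lower and 7 higher with miR-150-3p, 8 higher in FaDu with miR-99a-5p, 9 lower and 6 higher with miR-99a-3p, and 5 and 14 lower with si-FOXQ1-1 and si-FOXQ1-2. Shares of all genes at 1.5-fold are given above for the PANC-1 arrays only. The other counts at this threshold describe the set alone and are not compared with all genes. The mean over probes put PFKFB3 in FaDu with miR-99a-3p at -1.55.

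For mock cells with a 2-fold minimum, 6 genes were higher and 6 lower in FaDu than in PC3, 5 higher and 7 lower in PANC-1 than in PC3, and 11 higher and 8 lower in FaDu than in PANC-1. These counts with a 2-fold minimum are not compared with the share of all genes. Leaving out 1 mock channel gave 14 to 15 higher and 14 to 14 lower for FaDu against PC3, 11 to 12 higher and 15 to 17 lower for PANC-1 against PC3, and 13 to 15 higher and 13 to 16 lower for FaDu against PANC-1. Averaging mock channels in pairs was also chosen after seeing the data. Mock and transfected RNA were paired on each array, but with 1 array per condition no paired test was possible. The slide was not run as a block because all arrays share 1 slide. Dim genes such as CA9 and EGLN3 are limited by signal over background.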

Other observations

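Neighbouring pathways gave few ratios past 2-fold among genes above background in both channels. In FaDu with miR-99a-3p, PCK2, the mitochondrial enzyme of gluconeogenesis, was at -3.40, EIF4EBP1, which restrains translation downstream of mTOR, at -1.28, and the pentose phosphate enzymes RPIA and PGD were at 1.15 and -1.07. In PC3 with miR-99a-3p, IDH3A, a subunit of a citric acid cycle dehydrogenase, was at -1.51 and the mitochondrial phosphatase PGAM5 at -1.33. In PC3 with miR-150-3p, AKT1S1, an inhibitor of mTOR complex activity, was at -1.05. PGAM4, a near copy of PGAM1 whose probe may share its RNA, was at 1.05 in FaDu with miR-99a-3p. Each value is from 1 array and has no test.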
